A study of Equus caballus with 12 samples.

Results

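Translation factors and aminoacyl-tRNA synthetases are the proteins that start, carry and feed protein synthesis. Their mRNA levels were compared in pooled horse oocytes that had or had not been vitrified. The set was chosen by gene name: every gene of the deposited table whose Ensembl identifier is paired, in the study's supplementary gene lists, with a name that starts with EIF, EEF or PABP, or that consists of 1 or 2 letters followed by ARS, ARS1 or ARS2. This rule found 30 genes of the 11425 in the table, of which 2569 have a name in those lists. They comprise 9 factors of start codon selection and ribosome assembly and 7 genes grouped as cap-binding factors, their partners and helicases. The others are 4 genes named as elongation factors, 3 poly(A)-binding proteins and 7 tRNA synthetases.

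The names came from lists that are sorted by fold change and that are held here only in part. The list of VIM vs. FR stops at a small positive fold change, and the list of VMAT vs. FR holds only genes that were lower in VMAT. A total of 9 of the 30 genes (EEF1B2, EEF1G, EIF1, EIF3E, EIF4A3, EIF4E3, EIF4ENIF1, PABPN1 and PABPN1L) received their name only through the list of VMAT vs. FR. Which family members are in the set therefore depends in part on their direction, and other translation factors of the horse that have no name here were not analysed. Directions over the set are given below as a description, without a test.

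All oocytes came from slaughterhouse ovaries, were matured in vitro in medium with follicle-stimulating hormone and luteinizing hormone, were denuded of cumulus cells, and were kept only with a visible polar body. The control group, FR, was matured and never vitrified (5 libraries). The VMAT group was matured and denuded first, then vitrified and warmed (3 libraries). The VIM group, labelled VGV by the submitters, was vitrified at the germinal vesicle stage inside the corona radiata, warmed, and then matured (4 libraries). The authors isolated RNA from 5 pools per group. After control of RNA amount and integrity they kept 4 pools of VIM, 4 of VMAT and 5 of FR. They later removed 1 more VMAT sample, which had low RNA integrity, the lowest concentration and few reads. Each library was made from a pool of oocytes, so differences among oocytes of a pool cannot be seen, and the age and breed of the mares are not given in the sources used here.

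In every cell, initiation factors bring the small ribosomal subunit to the cap of an mRNA and place it at the start codon, elongation factors then deliver the charged tRNAs, and synthetases load each tRNA with its amino acid. A fully grown oocyte makes almost no new RNA. It stores mRNAs with short poly(A) tails in repressed complexes, and it activates them in turn during meiotic maturation. Cap-binding proteins, their repressors and poly(A)-binding proteins take part in this control, and several of them have forms that are typical of oocytes, such as EIF4E1B and PABPN1L.

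The deposited values are normalized counts, that is, molecules counted near the 3′ end of each mRNA and divided by 1 size factor per library. Whole reads could be recovered from them, and between 1636620 (VMAT replicate 1) and 12166950 (VMAT replicate 2) reads per library fell on genes, with a median of 2899468. VMAT replicate 2 stood apart in depth, with 83.2% of the genes above 0 against 47.9% to 66.8% in the other libraries. A value of 0 allows up to 3 reads, which is a normalized count of 0.376 in the deepest library and 9.34 in the shallowest. Such limits cover counting error only. Of 12 oocyte markers, 6 had a name in the lists, and their summed normalized count was 5826 to 11235 in VIM, 7404 to 15018 in VMAT and 8046 to 13463 in FR. Of 16 cumulus and granulosa cell markers only HAS2 had a name, at 641 to 2144 in VIM, 254 to 1755 in VMAT and 462 to 1239 in FR, and no blood marker of 4 had one. The part of cumulus cell RNA in the results below was not tested.

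No gene of the set was called different in any of the 3 comparisons. Calls were made with limma on log2(normalized count + 1) over all genes that passed a filter on low values, where the p adjusted by Benjamini-Hochberg was 0.05 or less and the log2 fold change was 1 or more in size. All 30 genes passed the filter in each comparison, as did all 2569 genes with a name. The background was as empty: of the genes tested by limma, 0.0% of 7351 were called for VIM vs. FR, 0.0% of 8305 for VMAT vs. FR and 0.0% of 7627 between VIM and VMAT. By limma, the smallest adjusted p of a member was 0.902, 0.950 and 0.967, respectively. At an unadjusted p under 0.05, the set held 1 gene in VIM vs. FR (EIF4ENIF1, against 3.78% of all genes), 0 in VMAT vs. FR (3.62%) and 1 between the vitrified groups (EIF4ENIF1 again, against 2.98%).

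The count tools also made few calls among these genes, but their fold changes often differed in size. On the recovered reads, edgeR's quasi-likelihood test called 0 members in each comparison, against 0.0% of all genes for VIM vs. FR, 0.012% for VMAT vs. FR and 0.0131% between the vitrified groups. DESeq2 called 0 members for VIM against FR (6.91% of all genes) and 0 for VMAT against FR (4.3%). It called 1 member between VIM and VMAT, PABPN1, against 3.93% of all genes. DESeq2 gave a p for 28 of the 30 members for VIM against FR, 27 for VMAT against FR and 26 between the vitrified groups, so the others could not be called there. Over the 90 fold changes (30 genes in 3 comparisons), the median size was 0.91 on the log2 scale with limma, 0.59 with edgeR and 0.62 with DESeq2, and 10 had the opposite sign with edgeR and 12 with DESeq2. In bulk samples such as these, fewer cells with an mRNA and less of it per cell cannot be told apart.

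**Figure D1:**
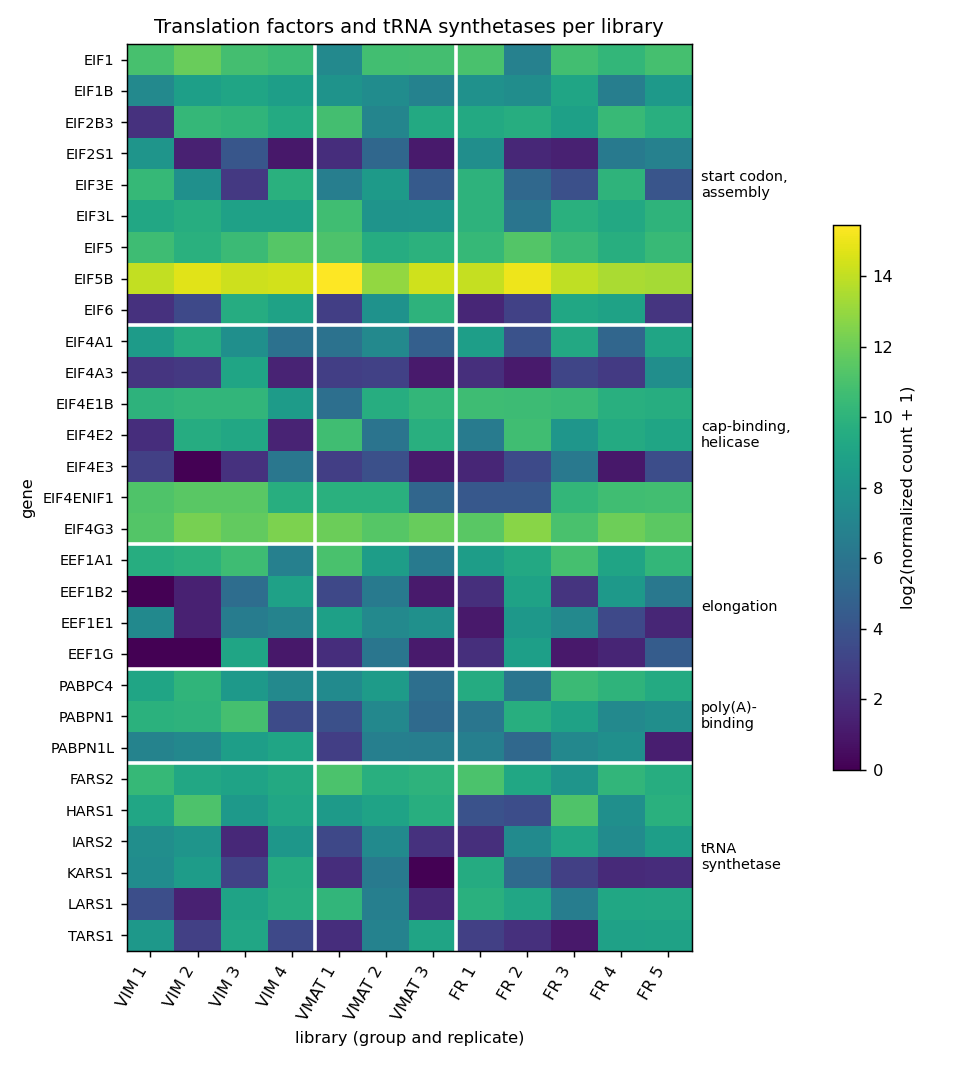
Level of 29 of the translation genes in the 12 libraries, as log2(normalized count + 1), with genes grouped by role in rows and libraries grouped as VIM, VMAT and FR in columns. EIF5B, EIF4G3 and EIF5 are at a high level in every library, while genes such as EIF6 and TARS1 are near 0 in some libraries of each group and high in others.

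In VMAT vs. FR, fold changes of the set leaned in a direction that its naming partly fixes. There, 21 members had a lower and 9 a higher mean log2 value in VMAT, with a median log2 fold change of −0.38. Over all genes, 49.7% were lower and the median was 0.01. Among the 9 genes that owe their name to the list of genes lower in VMAT, 8 were lower. The other 21 split into 13 lower and 8 higher, with a median of −0.25, and among all 2569 genes with a name 59.6% were lower, with a median of −0.31. In VIM vs. FR the set had 12 lower and 18 higher genes in VIM and a median of 0.16, against 53.1% lower and a median of −0.12 over all genes. Among the genes with a name, 59.0% were lower in VIM, with a median of −0.27. Between the vitrified groups, 9 were lower and 21 higher in VIM than in VMAT, with a median of 0.39, against 52.2% lower and −0.08 over all genes. Among the genes with a name, 49.2% were lower in VIM than in VMAT, with a median of 0.02. The naming bears on this comparison too. Of the 9 genes named only through the list of genes lower in VMAT, 8 were higher in VIM (median 1.43). Of the other 21, 13 were higher and 8 lower (median 0.23). VIM vs. FR and VMAT vs. FR share the FR libraries, and VIM vs. VMAT shares its libraries with both.

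**Figure D2:**
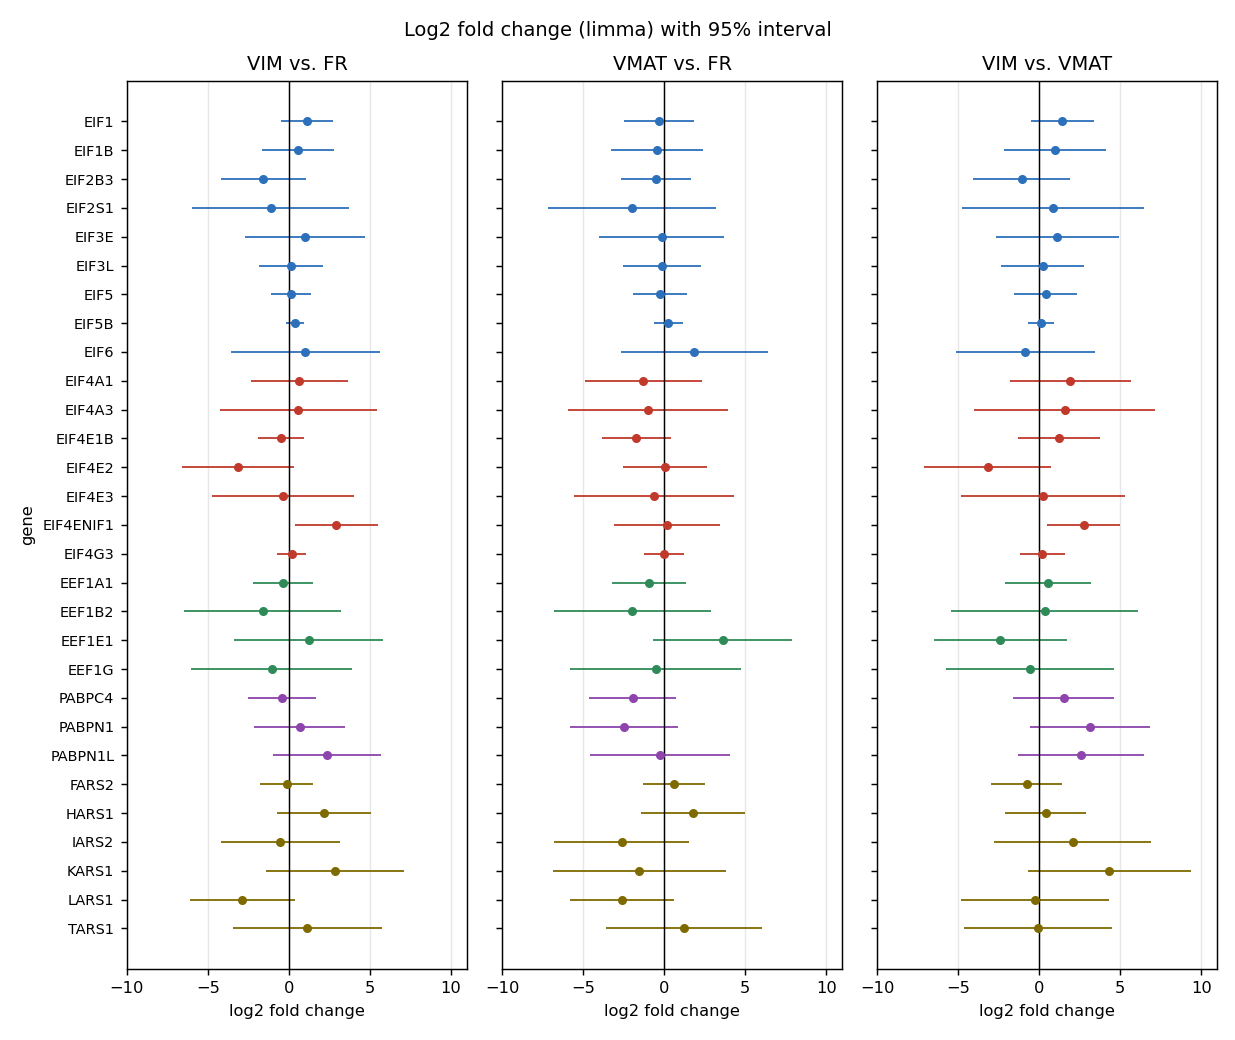
Log2 fold change of 29 of the genes with its 95% interval by limma, on the log2(normalized count + 1) scale, in 1 panel for each pair of groups. EIF4ENIF1 is the gene whose interval leaves out 0, for VIM against FR and for VIM against VMAT.

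The genes differed in how evenly they were detected. A normalized count above 0 in all 12 libraries was found for 25 of the 30 genes (26.2% of the genes in the table), and at least 1 library was at 0 for the others, among them EEF1B2, EEF1G, EIF4E3 and KARS1. With at least 3 reads in every library the count was 16 members and 16.2% of all genes. Many genes switched between a high and a near-absent level from pool to pool. Of 28 members that exceeded a normalized count of 100 in at least 1 library, 14 were below 10 in another (50.0%), against 84.6% of the 7168 genes of the table that exceeded 100. These thresholds were chosen after the data were seen. The shares of the set and of the table, for detection and for switching, were not matched for level or for having a name. All 2569 genes with a name passed the filter on low values in each comparison. Of the 11425 genes in the table, 7351 passed for VIM vs. FR, 8305 for VMAT vs. FR and 7627 for VIM vs. VMAT. Naming thus favoured detected genes, which fixed the higher detection of the set in part. The same shares among named genes were not computed. Of the 30 members, 11 had a mean normalized count of 300 to 1000 and 5 one of at least 1000. In the table these were 1226 and 569 of the 7395 genes with a mean of at least 10. The parts of level and of naming in these gaps were not tested. Leaving out VMAT replicate 2, the deepest library, gave 14 of 28 and 84.4% of 7103 genes.

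The spread within a group, as the pooled SD of log2(normalized count + 1), had a median of 2.35 over the members and of 2.64 over the 7395 genes with a mean normalized count of at least 10. It was under 1 for 5 members (EIF4G3, EIF5, EIF5B, EIF1B and FARS2) and over 2 for 20. In the set as in the table, the spread was narrowest at high levels. At a mean of at least 1000 the median SD was 0.755 for 5 members and 0.986 for 569 genes. It was about equal in 2 bands, with 2.31 for 11 members and 2.34 for 1226 genes at a mean of 300 to 1000. At a mean of 10 to 100 it was 2.67 for 5 members and 2.63 for 3865 genes. At a mean of 100 to 300 it was 2.90 for 9 members and 3.16 for 1735 genes. An SD of that size leaves single fold changes of several log2 units inside the replicate error of 3 to 5 pools.

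**Figure D3:**
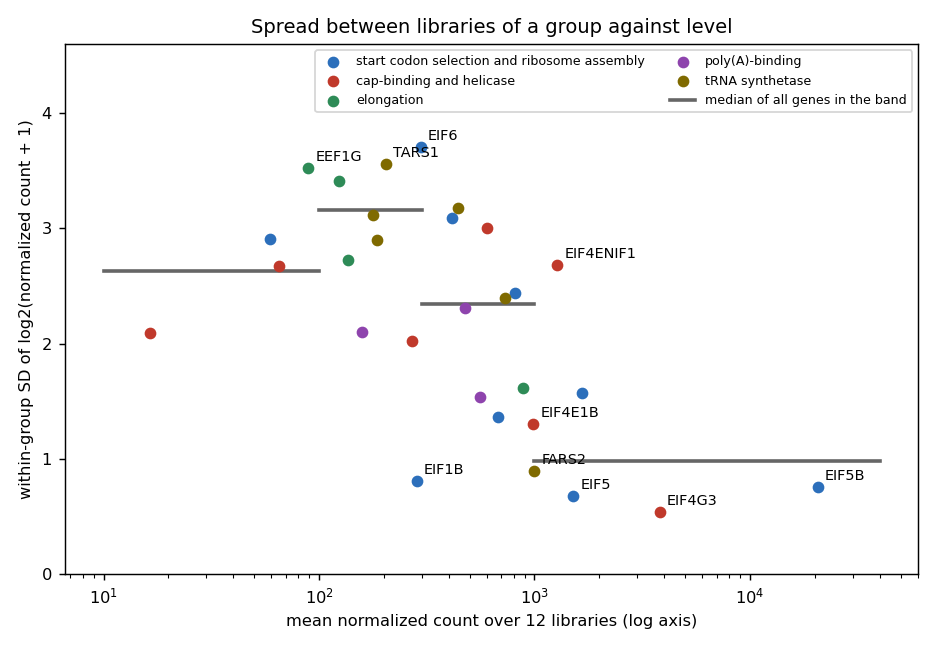
Within-group SD of log2(normalized count + 1) against the mean normalized count over 12 libraries, on a log axis, for 29 of the genes coloured by role, with grey lines at the median SD of all genes in each band of the mean. The median SD of the members is 2.90 at means of 100 to 300 and 0.755 at 1000 and above. Single members such as EIF1B (below) or EIF4ENIF1 (above) lie far from the line of their band. FARS2, with a mean of 999 and an SD of 0.90, lies far below the line of its band. It sits at the edge of that band and near the line of the next one (0.986).

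Among the factors of start codon selection and ribosome assembly, EIF5B, the GTPase that joins the ribosomal subunits, took more reads than any other member in every library. Its normalized counts were 16936, 27768, 19792 and 21282 in VIM, 44431, 7880 and 20891 in VMAT, and 17118, 33308, 15800, 11264 and 10605 in FR. The highest and the lowest of the 12 values both belonged to VMAT, replicates 1 and 2, the libraries with the smallest and the largest size factor (0.321 and 7.98). As a share of all reads of a library, EIF5B ranged from 0.414% (FR replicate 5) to 1.06% (FR replicate 2), and as a share of the reads of the 30 genes from 37.2% (FR replicate 5) to 69.6% (VMAT replicate 1). The within-group SD of EIF5B was 0.76 on the log2 scale with the deposited size factors and 0.40 when the libraries were scaled to equal totals. Equal totals narrowed the spread of only 9 of the 30 members. Relative to FR, the log2 fold change of EIF5B was 0.39 ± 0.27 (SE) in VIM and 0.27 ± 0.43 in VMAT, and VIM differed from VMAT by 0.12 ± 0.41. With 95% intervals of −0.16 to 0.95, −0.61 to 1.15 and −0.69 to 0.93, EIF5B was among the few members for which a change of 2 log2 units in either direction lies outside the interval.

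EIF5, which makes eIF2 hydrolyse its GTP once the start codon is found, was likewise present in every pool, at 748 to 2692 in all 12 libraries. Its group means were 1675 ± 751 (SD, n = 4) in VIM, 1328 ± 824 (n = 3) in VMAT and 1500 ± 648 (n = 5) in FR, which differed by less than the spread within any group.

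EIF1, a guardian of start codon fidelity, had normalized counts of 1970, 3920, 1783 and 1487 in VIM, 156, 1728 and 1830 in VMAT, and 2094, 109, 1769, 1178 and 1912 in FR. In 10 libraries it lay above 1000, and VMAT replicate 1 and FR replicate 2 were the exceptions, at 50 and 95 reads. EIF1B, a close paralog of EIF1, had 152, 412, 528 and 406 in VIM, 243, 180 and 116 in VMAT, and 227, 191, 545, 94.3 and 308 in FR. It did not drop in the libraries where EIF1 did, and its VIM and VMAT ranges overlapped at the single value of VIM replicate 1. Relative to FR, EIF1 had a log2 fold change of 1.11 ± 0.77 in VIM and −0.31 ± 1.07 in VMAT, and EIF1B one of 0.54 ± 1.08 and −0.44 ± 1.40. Between VIM and VMAT the difference was 1.43 ± 0.98 for EIF1 and 0.99 ± 1.59 for EIF1B, and none passed the test. Reads shared between paralogs may have been divided by the counting, so the levels of such pairs are uncertain.

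EIF2S1, the alpha subunit of eIF2 whose phosphorylation lowers initiation under stress, was a gene of scattered detection. Its values were 265, 1.63, 16.9 and 0.978 in VIM, 3.11, 35.1 and 1.18 in VMAT, and 196, 2.29, 1.68, 78.7 and 110 in FR. Each group held values from under 4 to over 30, and VMAT had none above 100. With a log2 fold change of −1.13 ± 2.34 for VIM and −1.99 ± 2.55 for VMAT against FR, and of 0.87 ± 2.84 for VIM against VMAT, EIF2S1 gave no difference beyond its SE. EIF2B3, a subunit of the factor that reloads eIF2 with GTP, was between 131 and 1839 in 11 libraries and at 3.68 (6 reads) in VIM replicate 1. With that library included, its within-group SD was 2.44, against 2.91 for EIF2S1.

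Of the remaining assembly factors, EIF3L and EIF3E are subunits of the scaffold eIF3, and EIF6 keeps free large subunits from joining too early. EIF3L ranged from 64.1 to 1665 with a within-group SD of 1.37. EIF3E ranged from 4.82 to 1289, with values under 50 and over 800 in both VIM and FR. EIF6 had no middle range at all, with 6 libraries below 10 and 6 above 100, in every group, and it had the widest within-group SD of the set, 3.70.

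EIF4ENIF1, grouped here with the cap-binding factors, was the gene with the smallest p in the set. Its protein, also called 4E-T, binds eIF4E and holds mRNAs in a silent state, and it is part of the stored mRNA complexes of oocytes. Normalized counts of EIF4ENIF1 (ENSECAG00000000311) were 2374, 2866, 2837 and 813 in VIM, 890, 878 and 33.0 in VMAT, and 18.3, 18.3, 1199, 1638 and 1762 in FR. VIM replicates 1 to 3 lay above every VMAT and FR library, VIM replicate 4 lay inside the range of both, and the low values rested on 28 reads in VMAT replicate 3 and on 17 and 16 in FR replicates 1 and 2. The means were 2222 ± 966 in VIM, 600 ± 491 in VMAT and 927 ± 856 in FR.

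Against FR, EIF4ENIF1 in VIM had a log2 fold change of 2.91 ± 1.24 (95% interval 0.35 to 5.48), with an unadjusted limma p of 0.0277 and an adjusted p of 0.902. Against VMAT it was 2.74 ± 1.14 (0.48 to 4.99), with an unadjusted limma p of 0.0177 and an adjusted p of 0.967. VMAT differed from FR by 0.18 ± 1.61. On the recovered reads the log2 fold change was smaller, at 1.07 with edgeR and 1.26 with DESeq2 against FR, and at 1.76 and 1.95 against VMAT. Neither difference passed the correction, and each rested on a few libraries. In VIM vs. FR the unadjusted p stayed under 0.05 in 4 of 9 limma fits without 1 library (range 0.0087 to 0.0836), and it exceeded 0.05 without VIM replicate 1, 2 or 3 and without FR replicate 1 or 2. Between VIM and VMAT it stayed under 0.05 in 6 of 7 such limma fits. Without VMAT replicate 3 the log2 fold change was 1.17, with an unadjusted limma p of 0.288.

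EIF4E1B, a cap-binding paralog made mainly in oocytes, had 1014, 1149, 1166 and 352 in VIM, 49.8, 775 and 1197 in VMAT, and 1590, 1513, 1425, 837 and 795 in FR. Its lowest value, 16 reads in VMAT replicate 1, came from the shallowest library, and all other libraries were at 352 or more. Against FR, the log2 fold change of EIF4E1B was −0.50 ± 0.69 in VIM and −1.71 ± 1.05 in VMAT, VIM differed from VMAT by 1.20 ± 1.28, and none passed the test. Without VMAT replicate 1, the value for VMAT against FR was −0.29, and with all libraries edgeR gave −0.72 and DESeq2 −0.87. EIF4E1B had the smallest within-group SD of the 3 eIF4E paralogs in the set.

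EIF4E2, which binds the cap but does not recruit the ribosome and so represses its targets, split the VIM pools. Its values were 3.07, 766, 619 and 1.96 in VIM, 1702, 60.4 and 841 in VMAT, and 85.2, 1635, 274, 698 and 545 in FR. VIM replicates 1 and 4, at 5 and 2 reads, were below every VMAT and FR library, and VIM replicates 2 and 3 were inside the FR range. Its log2 fold change of −3.14 ± 1.68 in VIM against FR had an adjusted p of 0.902 by limma, and that of −3.18 ± 1.98 against VMAT one of 0.967. VMAT differed from FR by 0.05 ± 1.27. For EIF4E2 in VIM against FR, edgeR gave −1.12 and DESeq2 −0.90, and limma gave −1.79 without VIM replicate 4, −1.94 without VIM replicate 1 and −4.46 without VIM replicate 2. Against VMAT, edgeR gave −1.10 and DESeq2 −1.33.

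EIF4E3, the third paralog, was near the limit of detection, at 6.75, 0, 3.62 and 67.5 in VIM, 6.22, 12.8 and 1.18 in VMAT, and 2.16, 10.3, 74.5, 1.01 and 11.5 in FR. The 0 in VIM replicate 2 allows up to 4.89, which covers the level of VIM replicate 3, so no difference between these pools was detectable at this depth. Its log2 fold change against FR was −0.39 ± 2.12 in VIM and −0.62 ± 2.42 in VMAT, and VIM differed from VMAT by 0.23 ± 2.56.

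EIF4G3, a scaffold that links the cap complex to the ribosome, had the narrowest spread of the set with the deposited size factors, a within-group SD of 0.54 on the log2 scale. With equal totals its SD was 0.51, and that of EIF5B was narrower. Its values were 2548, 4910, 3461 and 5443 in VIM, 4098, 2646 and 3711 in VMAT, and 2845, 6681, 2078, 4222 and 3022 in FR. All VIM and VMAT values lay inside the FR range. Against FR, its log2 fold change was 0.17 ± 0.43 (95% interval −0.72 to 1.07) in VIM and −0.02 ± 0.61 (−1.26 to 1.22) in VMAT, and VIM differed from VMAT by 0.19 ± 0.71 (−1.20 to 1.59). EIF5B and EIF4G3 were chosen for full values after their spread was seen.

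The helicases differed from each other in how often they were seen. EIF4A1, which unwinds the 5′ end of mRNAs, ranged from 13.7 to 758 and was above 10 in all libraries. EIF4A3, a part of the exon junction complex that marks spliced mRNA, was below 10 in 10 of 12 libraries and reached 540 in VIM replicate 3 and 200 in FR replicate 5.

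**Figure D4:**
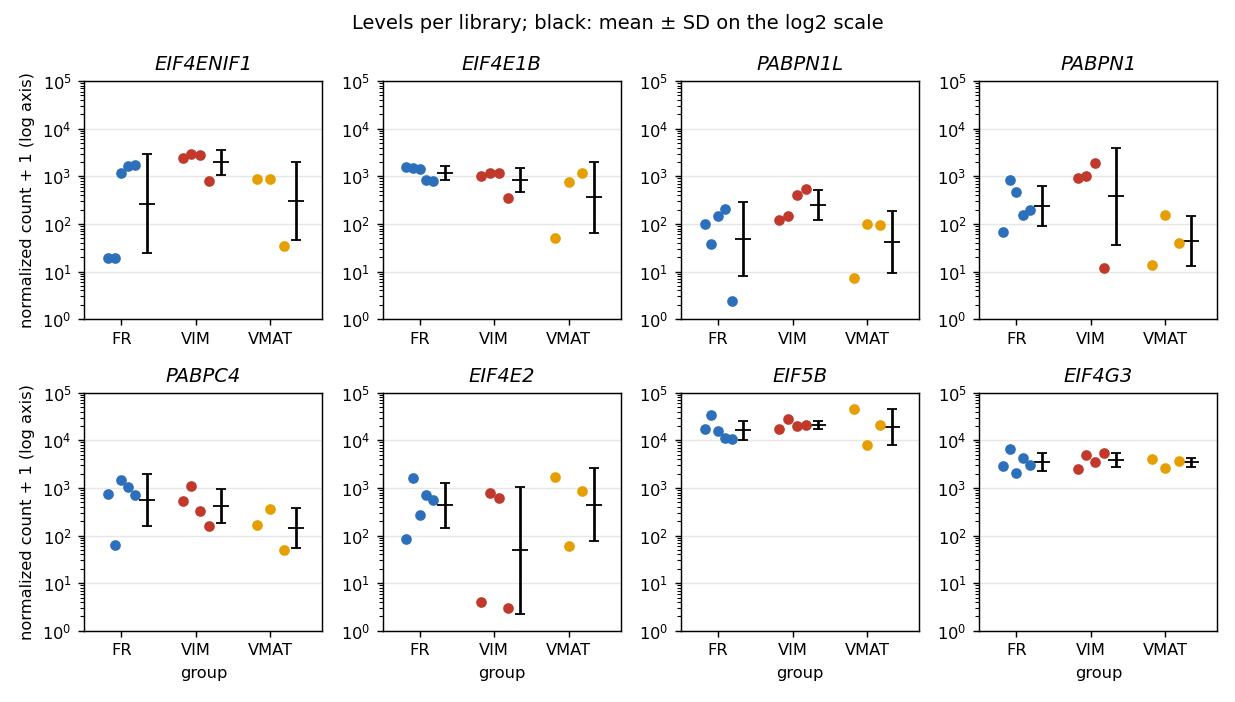
Normalized count + 1 in each library, on a log axis, for EIF4ENIF1, EIF4E1B, PABPN1L, PABPN1, PABPC4, EIF4E2, EIF5B and EIF4G3, with 1 point per library and black marks for the mean ± SD on the log2 scale. EIF4G3 lies between 2078 and 6681 in all 12 libraries, EIF5B between 7880 and 44431, and PABPN1L is the gene whose VIM points (120 to 549) all lie above its VMAT points (6.22 to 101).

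The poly(A)-binding proteins cover and protect mRNA tails. All 3 in the set had a lower mean log2 value in VMAT than in FR and than in VIM, but none passed the test, and PABPN1 and PABPN1L have their names only through the list of genes lower in VMAT. PABPN1L, an oocyte and early embryo form of the nuclear protein, had 120, 147, 398 and 549 in VIM, 6.22, 101 and 95.5 in VMAT, and 99.2, 36.6, 147, 205 and 1.43 in FR. PABPN1L was the only member without overlap in a comparison, with every VIM library above every VMAT library.

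Complete separation of this kind was not rare. Every VIM library lay above every VMAT library for 1.72% of all genes and below for 2.78%. The shares were 0.952% and 0.639% for VIM above and below FR, and 1.96% and 1.23% for VMAT above and below FR. The lowest VIM value of PABPN1L, 120, and the highest VMAT value, 101, were close, and the lowest VMAT value rested on 2 reads in replicate 1. Its log2 fold change for VIM against VMAT was 2.59 ± 1.96, with an adjusted p of 0.967 by limma. Against FR it was 2.35 ± 1.61 in VIM and −0.24 ± 2.13 in VMAT.

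PABPN1, the nuclear protein that sets the length of new tails, had 915, 1014, 1855 and 10.8 in VIM, 12.4, 149 and 38.9 in VMAT, and 66.8, 824, 474, 153 and 197 in FR. VIM replicates 1 to 3 were above every other library and VIM replicate 4 was the lowest of all 12. The means were 949 ± 754 in VIM, 66.9 ± 72.7 in VMAT and 343 ± 309 in FR. For VIM against VMAT, limma gave a log2 fold change of 3.13 ± 1.87 with an adjusted p of 0.967. DESeq2 gave 3.90 with an adjusted p of 0.0404, and edgeR gave 3.34 with an adjusted p of 0.452. Over the 16 alternatives other than DESeq2, that of edgeR was the lowest adjusted p, and none made the call. Against FR, limma gave 0.65 ± 1.35 for VIM and −2.48 ± 1.64 for VMAT.

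PABPC4, a cytoplasmic poly(A)-binding protein, had 529, 1082, 319 and 155 in VIM, 168, 354 and 49.5 in VMAT, and 737, 61.8, 1496, 1068 and 704 in FR. Leaving aside FR replicate 2, the FR values were above every VMAT value, and that 1 library closed the gap. In VMAT against FR its log2 fold change was −1.94 (95% interval −4.61 to 0.73), with an adjusted p of 0.950 by limma. It was −0.43 ± 1.03 in VIM against FR, and VIM differed from VMAT by 1.51 ± 1.58.

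Among the elongation factors, EEF1A1 carries charged tRNAs to the ribosome and is one of the most abundant proteins of a cell. Its normalized counts were 775, 986, 1574 and 104 in VIM, 2094, 383 and 79.0 in VMAT, and 385, 633, 1874, 512 and 1207 in FR. Values above 1000 and values at or below 385 occurred in all 3 groups, and the means of 860 ± 607, 852 ± 1086 and 922 ± 618 in VIM, VMAT and FR were closer than any group's SD. VIM differed from FR by a log2 fold change of −0.38 ± 0.89, VMAT from FR by −0.96 ± 1.12 and VIM from VMAT by 0.57 ± 1.34. Processed copies of EEF1A1 are common in mammalian genomes, which makes its count uncertain.

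EEF1B2 and EEF1G belong to the complex that reloads EEF1A1 with GTP, and both were patchy. EEF1B2 ranged from 0 to 483, with 6 libraries below 10 and 3 above 100. EEF1G ranged from 0 to 546 and was above 100 in 2 libraries, VIM replicate 3 (546) and FR replicate 2 (423), against 66.1 or less elsewhere. EEF1E1, despite its name, is a scaffold protein of the multi-synthetase complex. It was above 100 in all 3 VMAT libraries (433, 153 and 218), while VIM ranged from 1.63 to 161 and FR from 1.08 to 294. Its log2 fold change in VMAT against FR, 3.62 ± 2.12, had an adjusted p of 0.950 by limma, and VIM differed from VMAT by −2.40 ± 2.07. On the recovered reads VMAT differed from FR by 1.33 with edgeR and 1.53 with DESeq2.

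Of the tRNA synthetases, KARS1 and LARS1 charge lysine and leucine tRNAs inside the multi-synthetase complex. KARS1 was above 100 in 3 of 4 VIM libraries (181, 368 and 710), in 0 of 3 VMAT libraries and in 1 of 5 FR libraries (730). Its log2 fold change for VIM against VMAT was 4.34 ± 2.54, with an adjusted p of 0.967 by limma, and it was 2.92 with edgeR. LARS1 was at 93.5 to 901 in all 5 FR libraries, while VIM ranged from 1.63 to 800 and VMAT from 2.36 to 1151. LARS1 had a log2 fold change of −2.87 ± 1.57 in VIM and −2.60 ± 1.57 in VMAT against FR, with adjusted p of 0.902 and 0.950 by limma. These values were −0.82 and −0.95 with edgeR, and −0.79 and −0.40 with DESeq2.

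HARS1 and TARS1 charge histidine and threonine tRNAs in the cytoplasm. HARS1 was at 209 or more in 10 libraries and had 13 and 10 reads in FR replicates 1 and 2. TARS1 was above 100 in 6 libraries and below 10 in the other 6, in all 3 groups, with a within-group SD of 3.56. Of the mitochondrial enzymes, FARS2 (phenylalanine) was steady at 262 to 2188 with a within-group SD of 0.90, and its group means were 762 ± 353 in VIM, 1317 ± 686 in VMAT and 997 ± 742 in FR. IARS2 (isoleucine) was at 169 to 569 in 8 libraries and below 10 in 4, which were spread over VIM, VMAT and FR.

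A list of 39 other genes of translation and its control, such as release factors, CPEB proteins and partners of the synthetase complex, was read from the same fits. A name was found for 16 of them, through the same lists, so their directions carry the same dependence. Of these 16, limma and edgeR called 0 in each comparison, while DESeq2 called 1 in each, GUF1 against FR for both vitrified groups and LARP1 between the vitrified groups. A single gene of 16 is near the share that DESeq2 called of all genes, 6.91% for VIM against FR, 4.3% for VMAT against FR and 3.93% between the vitrified groups. In VIM vs. FR, 4 were higher and 12 lower in VIM, with a median log2 fold change of −1.45, and 2 had an unadjusted limma p under 0.05 (3.78% of all genes), both with an adjusted p of 0.902. They were EPRS1 (−3.98 ± 1.47), the synthetase for glutamate and proline in the multi-synthetase complex, and GUF1 (−5.02 ± 2.27), a mitochondrial elongation factor. In VMAT vs. FR, 4 were higher and 12 lower with a median of −1.21 and 0 under 0.05. Between the vitrified groups, 9 were higher and 7 lower in VIM with a median of 0.19. There limma gave an unadjusted p under 0.05 (2.98% of all genes), and an adjusted p of 0.967, for EPRS1 (−3.91 ± 1.91) and for MTIF2 (4.21), a mitochondrial initiation factor.

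EPRS1 had 2087, 9.78, 15.7 and 8.80 in VIM, 2153, 277 and 479 in VMAT, and 398, 1442, 603, 618 and 739 in FR. VIM replicates 2 to 4 were thus below every VMAT and FR library, and VIM replicate 1 was the second highest of all 12. GUF1 was at 1.23 or less in the VIM libraries and at 3.11 or less in VMAT, and in FR it was at 411, 372 and 197 in 3 libraries and at 1.12 and 0.505 in the other two. MTIF2 had 544, 707, 396 and 145 in VIM, 3.11, 3.63 and 478 in VMAT, and 3.23, 654, 2.80, 692 and 107 in FR. The low MTIF2 values in VMAT replicate 1 (3.11) and in FR replicates 1 and 3 (3.23 and 2.80) lie near the limit of a few reads. That in VMAT replicate 2 (3.63) lies well above the 0.376 to which 3 reads correspond in this deepest library. Fold changes of genes at such low levels depend on the pseudocount.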

How the data were processed

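RNA from pools of horse oocytes was sequenced with a UMI-based 3′ kit. Per the labels and the study's methods, the authors trimmed reads with Trim Galore, mapped them to EquCab3.0 with STAR, collapsed molecular identifiers with UMI-tools, counted genes with RSEM and removed 1 VMAT sample. The deposited signal is the count of a gene divided by 1 DESeq2 size factor per library, called the normalized count here. Every value was a whole multiple of its library's step (100.0%, tolerance 0.001), so whole reads were recovered for edgeR, DESeq2 and statements on depth. All 12 columns were mapped to samples. The kit counts 3′ ends, so reads of different genes were not taken as levels per mRNA length.

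Log2(normalized count + 1) was fitted with limma 3.58.1 (R 4.3.3; lmFit, eBayes with trend) for each pair of groups over all genes whose number of libraries above 0 reached the size of the smaller group, with Benjamini-Hochberg adjustment over those genes; fold changes are on this scale, which understates changes of low genes. Intervals are 95% intervals of the fit. Alternatives used edgeR 4.0.16 and DESeq2 1.42.0 on the recovered reads. Each fit was tested on simulated counts with 200 changed genes. These counts varied much less between libraries than the real ones, so the test checked the code and not the power of the fits here. Replicates are separate pools, and the sources do not tie them to animals, so p-values measure the spread between pools. No 2 libraries of a group agreed within sampling noise.

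Members and lists were chosen with earlier results of these data known. Values in every library are given for genes known from oocytes and their paralogs, for members with an unadjusted p under 0.05 and for members whose groups did not overlap. EPRS1, GUF1 and MTIF2 were named by the same p. EIF5B and EIF4G3 were added after their values were seen. From the authors' lists, only the gene names entered the results. Their fold changes served only to describe how the lists are sorted and cut, and their p-values were not used. One member enters all counts but its own values are not reported here, and the figures show the other 29. Coordinates and sequences were not used here.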

Additional observations from a re-analysis of the deposited data

Results flagged for a closer look

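In 13 cases the highest or lowest library of a group stood apart from the others by Dixon's test at the 95% level, on the log2(normalized count + 1) scale. The test was run on the 4 VIM and the 5 FR libraries of each of the 30 genes, 60 groups in all, of which chance marks about 1 in 20, or 3. The 3 VMAT libraries are too few for it.

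Low values among the VIM libraries were EEF1E1 in replicate 2 (1.63, the others 86.8 to 161), EIF2B3 in replicate 1 (3.68, the others 688 to 1224) and IARS2 in replicate 3 (2.41, the others 195 to 292). VIM replicate 4 was low for EIF4E1B (352, the others 1014 to 1166), EIF4ENIF1 (813, the others 2374 to 2866) and PABPN1 (10.8, the others 915 to 1855). VIM replicate 3 was high for EEF1G (546, the others 0 to 0.978) and EIF4A3 (540, the others 1.96 to 4.89). Among the FR libraries, replicate 2 was low for EIF1 (109, the others 1178 to 2094), EIF3L (64.1, the others 632 to 1047) and PABPC4 (61.8, the others 704 to 1496). FR replicate 1 was low for IARS2 (3.23, the others 169 to 569) and FR replicate 3 for LARS1 (93.5, the others 573 to 901). The cause of these values was not tested.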

How the results depend on the processing

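The count of members called stayed at 0 in every comparison with pseudocounts of 0.5 and 10, without a filter on low values, with a minimum of 10, with equal column totals, with all 12 libraries in 1 fit, without the trend, with edgeR and without any 1 library (0 to 0). DESeq2 on the recovered reads called 1 member, PABPN1, in VIM vs. VMAT (log2 fold change 3.90). The number of members in every library was 25 with a normalized count above 0, 16 with at least 3 reads and 25 to 26 without 1 library.

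Libraries of the same replicate number did not deviate together: the correlation of deviations from the group means was −0.031 to 0.011 between libraries of the same number and −0.028 to 0.055 between others. With all correlations near 0, this check could not show whether libraries shared a session. The study matured FR and VMAT oocytes together, and the labels do not say which libraries came from the same session. With the replicate block 0 members were called in each comparison, as without it. With the block, the log2 fold change in VMAT vs. FR was 0.10 for EIF1, −0.10 for EIF5B and 0.0089 for EIF4G3, and in VIM vs. VMAT it was −0.87 for EIF4E3, each of the opposite sign.

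Of 39 fold changes of 13 members, 21 kept their sign under all alternatives run. In VMAT vs. FR, EIF4ENIF1 turned to −0.63 with edgeR and −0.64 with DESeq2, and EIF4E2 to −0.023 with equal totals and −0.034 with edgeR. In VIM vs. VMAT, EIF5B turned to −0.18 with DESeq2. Without 1 library, the sign changed for 18 of them. In VIM vs. FR the ranges were −0.85 to 0.45 (EEF1A1), −1.49 to 0.55 (EIF4E3), −0.010 to 0.41 (EIF4G3), −1.21 to 0.036 (PABPC4) and −0.12 to 2.32 (PABPN1). In VMAT vs. FR they were −2.15 to 0.21 (EEF1A1), −1.10 to 0.86 (EIF1), −0.92 to 1.48 (EIF4E2), −1.22 to 0.14 (EIF4E3), −0.77 to 1.74 (EIF4ENIF1), −0.20 to 0.22 (EIF4G3), −0.33 to 0.92 (EIF5B) and −1.32 to 1.02 (PABPN1L). In VIM vs. VMAT they were −0.59 to 1.77 (EEF1A1), −0.60 to 2.07 (EIF2S1), −0.21 to 2.07 (EIF4E1B), −0.87 to 1.17 (EIF4E3) and −0.53 to 0.72 (EIF5B). The cause was not tested. Equal totals moved the median log2 fold change of all genes in VIM vs. FR from −0.12 to −0.20.

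The planned repeat over family members named independently of these lists was not run, since no table here paired the identifiers with names. The unadjusted p of EIF4ENIF1 was under 0.05 in 6 of 10 other settings in VIM vs. FR (0.021 to 0.291) and in 7 of 10 in VIM vs. VMAT (0.0113 to 0.0991). With 3 to 5 pools per group, depth limited the members below a few reads.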
